A study of Rattus norvegicus with 18 samples.

Results

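The end of rat chromosome 6 that holds the immunoglobulin heavy chain locus was examined by RNA-seq in 18 rats, from their visceral white adipose tissue (vWAT). Every gene of the deposited count table on chromosome 6 from the start at 138014495 to the end of the chromosome (rat build Rnor_6.0) was taken, the gene before it starting at 137997335, and 67 of the 145 genes listed there had at least 1 count over the 18 libraries. These 67 genes, of 32883 in the table, are the members described here, and the other 78 genes had no count in any library. The members held 55337 of 287281308 counts, which is 0.0193% of the total.

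The heavy chain locus encodes the large subunit of antibodies. In B cells, variable (V), diversity (D) and joining (J) segments are joined by DNA rearrangement, and the joined exon is spliced to the exons of a constant gene, which sets the antibody class. Plasma cells, the secreting end stage of B cells, devote a large part of their RNA to heavy and light chains. In fat, B and plasma cells are found among the stromal cells and in the lymphoid clusters of visceral depots, and adipocytes do not rearrange the locus.

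A group of 6 Wistar-Kyoto (WKY) rats served as normotensive controls, and 12 male spontaneously hypertensive rats (SHRs), 7 to 8 weeks old when treatment began, were divided at random into 6 on tap water (SHR-Water) and 6 whose water held trimethylamine oxide (TMAO) at 1 g/L (SHR-TMAO). Treatment lasted 22 weeks, rats were housed 3 to a cage, and no separate sex or age is given for the WKY rats in the sources used here. The libraries came from whole tissue, so fewer cells of a type and less RNA per cell cannot be told apart, and strain and blood pressure cannot be told apart between WKY and SHR. Between WKY and SHR-TMAO, treatment differs as well, and no group of WKY rats received TMAO. Each library carries its own sample label, and p-values measure the spread between these samples. Which rats shared a cage is not given in the sources used here. The fits took each rat as independent, and differences between cages were not tested.

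Library totals lay between 10774133 and 18874161 counts. The 2 lowest belonged to WKY replicate 3 (10774133) and WKY replicate 1 (10948600). Genes of the mitochondrial genome took 7.08% to 28.5% of the counts. A trend with gene length set libraries apart: across 12395 expressed genes, the Spearman rho between length and a library's deviation from the mean ran from -0.43 in WKY replicate 4 to 0.47 in SHR-Water replicate 4. The table gives identifiers without names, and none matched the reference names, so genes are given by position, and no marker list of B cells, plasma cells, T cells, macrophages or adipocytes could be measured.

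The label of the region held for only a part of it. By structure and counts, the chromosome end fell into 3 stretches. A stretch at the start, whose genes start between 138.014 and 138.433 Mb, had 5 counted genes and 29.8% of the region's counts. The middle stretch, with starts between 138.507 and 143.879 Mb, had 111 listed genes, of which 105 were short (at most 600 exon bases in at most 3 merged exons), as V segments are, and 96 lay on the minus strand. It held 0.651% of the counts. The last stretch, with starts from 143.901 Mb on, had 17 counted genes and 69.6% of the counts. By number, its counted genes were in the main long genes of many exons such as are found outside immunoglobulin loci. Its most counted genes had few exons, at 146.394 Mb (1 exon, 10581 counts) and 143.901 Mb (3 merged exons, 10246 counts). Structure set the middle stretch apart as segment-like, while most of the counts came from the last one. In the first stretch, 1 of the 5 counted genes was short. The borders were drawn after structure and counts were seen.

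**Figure D1:**
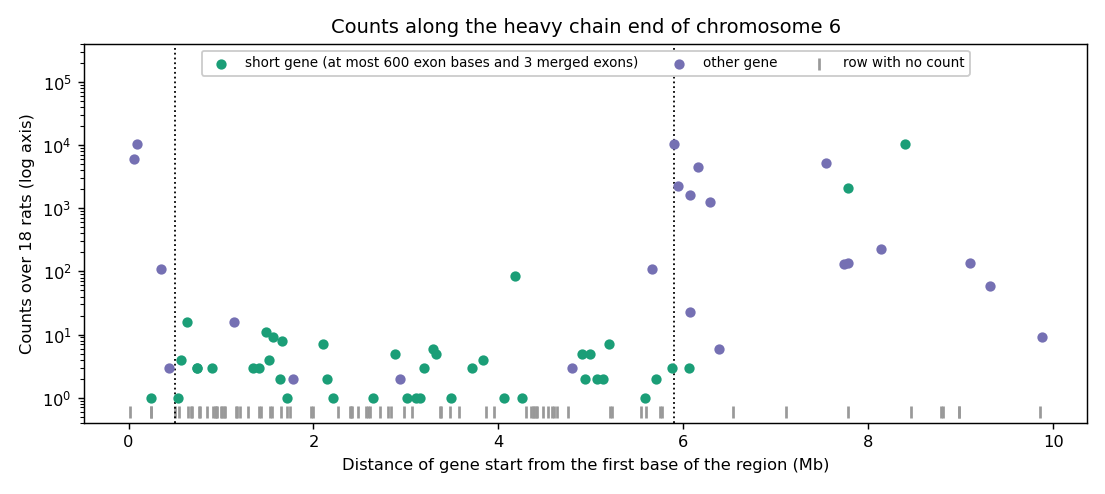
Summed counts of each gene over the 18 rats (log axis) against the distance of its start from the first base of the region, in Mb, with short genes in green, other genes in purple, genes with no count as grey ticks and the borders of the 3 stretches dotted. The genes of the middle stretch lie at 109 counts or fewer, between a pair of genes at 5972 and 10393 counts on the left and genes of up to 10581 counts on the right.

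Nearly all counts of the first stretch, 99.3%, fell on 2 genes of the minus strand. ENSRNOG00000048402 (chromosome 6, 138092131 to 138093643) has 4 merged exons of 286, 63, 330 and 323 bases in the order of transcription and had 10393 counts. This is the layout of a secreted constant gene, with domain-sized exons around a short hinge-sized exon, but no antibody class was assigned to it. The other gene (138054662 to 138662511) has 36 merged exons with 7244 exon bases and had 5972 counts. Its annotated span reaches into the middle stretch and covers other listed genes, with which it shared 0 exon bases. Its level is that of the whole row, which is called the 36-exon row here.

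ENSRNOG00000048402 differed more between WKY rats than between the groups. Its level in the 6 WKY rats was 92.7, 10.3, 458, 14.0, 30.8 and 6.44 CPM (counts scaled to the size of the library, with TMM factors over the 18 libraries) for replicates 1 to 6. In the 6 SHR-Water rats it was 3.84, 9.85, 29.3, 10.1, 10.2 and 12.7 CPM. In the 6 SHR-TMAO rats it was 35.1, 34.8, 15.1, 12.4, 10.9 and 16.1 CPM. WKY replicates 3 and 1 stood above every SHR, while the other 4 WKY rats overlapped both SHR groups. The group means were 102 ± 177 in WKY, 12.7 ± 8.66 for SHR-Water and 20.7 ± 11.2 for SHR-TMAO (SD, n = 6 each), and the medians were 22.4, 10.2 and 15.6 CPM.

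The 36-exon row at 138.055 Mb had the same 2 rats on top. It lay at 101, 6.17, 154, 6.25, 16.4 and 10.8 CPM in WKY replicates 1 to 6. The SHR-Water rats had 4.11, 14.2, 20.1, 9.49, 3.13 and 11.98 CPM. The SHR-TMAO rats had 16.8, 16.2, 9.5005, 10.3, 18.6 and 13.2 CPM. Without WKY replicates 1 and 3, the 3 groups overlapped throughout.

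**Figure D2:**
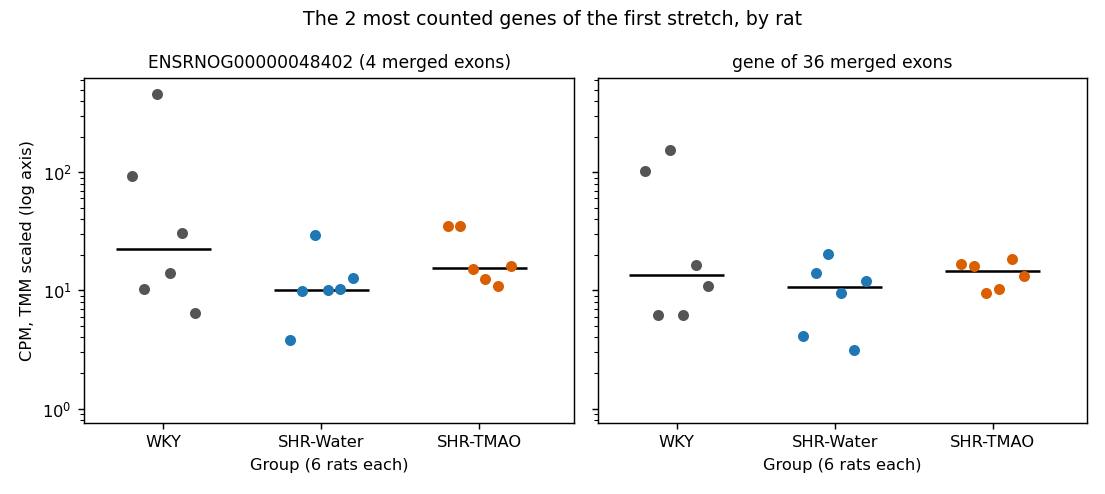
Level of the 2 most counted genes of the first stretch in each rat, in TMM-scaled CPM on a log axis, with a line at the median of each group of 6. The rats WKY replicate 3 (458 and 154 CPM) and WKY replicate 1 (92.7 and 101 CPM) lie apart, and the other rats lie between 3.13 and 35.1 CPM.

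The 2 genes varied together over the 18 rats, and within the groups the coefficient was highest in WKY and lowest in SHR-TMAO. Over the 18 rats, log2(CPM + 1) of one against the other gave a Pearson r of 0.890 and a Spearman rho of 0.711, and r was 0.641 without the 2 rats farthest from the median. Within the groups, r was 0.933 in WKY, 0.721 for SHR-Water and 0.378 for SHR-TMAO (n = 6 each). In the same order, rho was 0.829, 0.429 and 0.086. The WKY coefficients include replicates 1 and 3, the highest rats for both genes, and were not computed without them. The order of the groups is thus not shown apart from those rats. All these coefficients describe levels that share a library, a depth and a scaling. The ratio of the counts of the 2 genes was not fixed, and ranged from 0.584 in SHR-TMAO replicate 5 to 3.27 in SHR-Water replicate 5.

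Their sum took from 6.09% of the region's CPM, in SHR-Water replicate 1, to 76.0%, in WKY replicate 3. In WKY, it had a median of 33.7 CPM and ran from 16.5 to 612. In SHR-Water, it had a median of 21.8 CPM and ran from 7.95 to 49.4, and in SHR-TMAO a median of 29.4 CPM and a range of 22.7 to 51.9. The WKY mean of 151 ± 236 CPM (SD, n = 6) became 25.3 ± 14.7 (n = 4) without replicates 1 and 3, beside 23.2 ± 14.4 for SHR-Water and 34.8 ± 13.1 for SHR-TMAO (n = 6 each). The mean of WKY thus rested on those 2 rats. Both have the lowest library totals of the series, and the part of depth in their levels was not tested.

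Genes elsewhere in the genome were ranked by how well their levels followed this sum over the 18 rats, a ranking chosen after the values of the pair were seen. Of 12385 genes, the most alike lay on chromosome 4 (98337367 to 98523473), with a Spearman rho of 0.924, and of 0.891 without WKY replicates 1 and 3. In WKY it ran from 12.001 to 794 CPM with a median of 38.0, and its 2 highest rats were replicate 3 (794) and replicate 1 (265). In SHR-Water it ran from 9.80 to 40.2 CPM with a median of 15.6, and in SHR-TMAO from 27.5 to 59.1 CPM with a median of 41.2. The same 2 WKY rats were high for the pair and for this gene. The gene was picked for its likeness to the sum of the pair, so this largely follows from the ranking.

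The next in rank lay on chromosome 14 (21177237 to 21183542, rho 0.862), chromosome 1 (197765644 to 197770669, rho 0.792) and chromosome 11 (86092468 to 86092779, rho 0.773). The gene on chromosome 11, of 312 exon bases, had 79.7 CPM in WKY replicate 1 and 57.7 CPM in WKY replicate 3, against a WKY median of 2.84 CPM, while the highest SHR had 15.8 CPM. As background, RefSeq (assembly GRCr8) lists V segments and constant regions of antigen receptors on chromosomes 4, 6, 11 and 15, with 146 V segments on chromosome 6, 161 on chromosome 4 and 4 on chromosome 11. Its coordinates belong to another build, so no gene was named from them. These values share library and depth, and the ranking says nothing of shared function.

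The middle stretch, where the segment-like genes lie, had few counts. Of its 111 listed genes, 66 had no count in 287281308, which allows at most 0.0104 CPM over the series (3 counts, counting error only). The 45 counted genes had 360 counts in all, 11 of them had 1 count, and 40 had 10 counts or fewer. Of the 810 values of these genes in the 18 libraries, 85.2% were 0 and the highest was 20. They were 40 short and 5 other genes, 38 on the minus strand and 7 on the plus strand, with a median of 351 exon bases. V segments resemble each other closely, and the authors' counting left out reads that map to more than 1 place, so counts of single segments are uncertain.

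At least 1 count was found for 1 to 8 of these 45 genes per WKY rat (median 5), for 2 to 17 per SHR-Water rat (median 6) and for 5 to 11 per SHR-TMAO rat (median 8). SHR-Water replicate 3, with 17, had the most, and the groups overlapped. Their summed level was 0.927 ± 0.468 CPM in WKY, 1.27 ± 0.843 for SHR-Water and 1.58 ± 0.910 for SHR-TMAO (SD, n = 6 each). WKY replicates 1 and 3, the rats with the highest levels of the pair, had 1.42 and 1.53 CPM here, the highest of their group and within the range of the SHRs. The most counted gene of the stretch (143661373 to 143662181) is a single exon of 809 bases on the plus strand with 109 counts, and its mean was 0.330 CPM in WKY, 0.400 for SHR-Water and 0.408 for SHR-TMAO.

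A short gene at 142.177 Mb, with 3 merged exons and 345 bases, held 85 of the 360 counts and was the exception. In the 6 WKY libraries it had 0, 0, 0, 0, 1 and 0 counts. In SHR-Water it had 0, 18, 8, 1, 1 and 7 counts, and in SHR-TMAO 14, 7, 2, 6, 0 and 20. It was thus seen in 5 of 6 rats of each SHR group and in 1 of 6 WKY rats, and the groups overlapped, since SHR-Water replicates 1, 4 and 5 and SHR-TMAO replicate 5 had 0 to 1 counts, as the WKY rats did.

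For this gene, the summed 35 counts of SHR-Water against 1 of WKY gave a ratio of 32.0 after scaling (95% exact interval 5.38 to 1300), and the 49 of SHR-TMAO a ratio of 45.2 (7.73 to 1820). The intervals cover counting error only, not the spread between rats, and 18 of the 35 SHR-Water counts came from replicate 2. The ratios were computed for this gene after its counts were seen, so they only describe these libraries. The gene did not pass the filter on low counts and had no test in the primary analysis. Without that filter, edgeR's quasi-likelihood test gave a log2 fold change of 4.22 for SHR-Water against WKY (adjusted p = 0.0564) and 4.76 for SHR-TMAO against WKY (adjusted p = 0.0206). DESeq2 gave 4.25 (adjusted p = 0.0298) and 4.84 (adjusted p = 0.00383). Between the SHR groups, the log2 fold change without the filter was 0.58 (edgeR, adjusted p = 0.720). Strain and the match of its reads to the reference sequence cannot be told apart here.

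**Figure D3:**
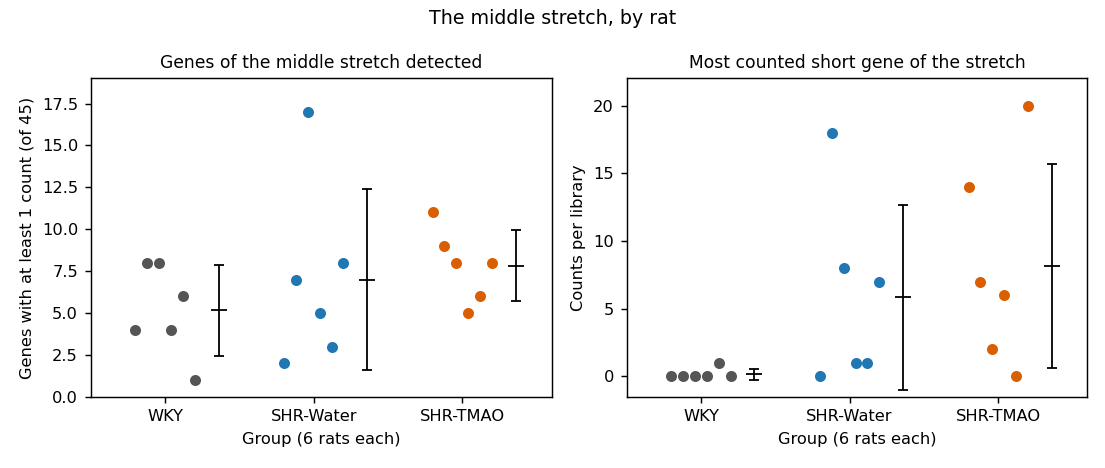
Number of the 45 counted genes of the middle stretch with at least 1 count (left) and counts of the short gene at 142.177 Mb (right) in each library, with the mean and SD of each group of 6. The groups overlap on the left, with a highest value of 17 in SHR-Water replicate 3, while on the right the WKY rats have 0 or 1 count and the SHRs have between 0 and 20.

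Per length, the members covered a wide range of levels. The mean over the 18 rats, in TMM-scaled CPM per kilobase of exon (FPKM), was highest for a single-exon gene at 146.394 Mb (67.4). ENSRNOG00000048402 followed at 45.03 FPKM, with a median of 22.3 in WKY, 10.1 for SHR-Water and 15.6 for SHR-TMAO. After them came the genes at 145.777 Mb (16.8), 143.901 Mb (10.4), 144.156 Mb (5.83), 138.055 Mb (3.40), 145.547 Mb (3.32), 143.938 Mb (1.83), 144.069 Mb (1.63) and 142.177 Mb (0.824). In all, 9 members had a mean of at least 1 FPKM and 58 were below it. Ranges between rats overlapped for neighbours in this order, since ENSRNOG00000048402 alone ran from 3.83 to 457 FPKM and the gene at 146.394 Mb from 26.4 to 125.

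The most counted gene of the region changed with the rat. It was the 36-exon row at 138.055 Mb in WKY replicate 1 (25.1% of the region's counts), ENSRNOG00000048402 in WKY replicate 3 (56.9%), the gene at 144.156 Mb in WKY replicate 2 (21.99%) and the gene at 146.394 Mb in WKY replicate 4 (36.1%). The sum over the region was 305 ± 265 CPM in WKY, 160 ± 22.7 for SHR-Water and 158 ± 12.9 for SHR-TMAO (SD, n = 6 each). Without WKY replicates 1 and 3, the WKY mean was 156 ± 25.7 (n = 4), close to both SHR groups. The sum over the last stretch alone was 153 ± 41.9, 135 ± 13.5 and 121 ± 5.82 CPM.

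The comparison of SHR-Water with WKY asks how the hypertensive strain differs from its normotensive control. Genes were called differentially expressed at a Benjamini-Hochberg adjusted p under 0.05 with a log2 fold change of at least 1 either way. Of 12 members that passed the filter on low counts, 0 were called by edgeR, where 3.42% of all 13017 genes tested were. At an unadjusted p under 0.05, 7 of the 12 passed, against 25% of all genes, and DESeq2 called 2 of 17 members, ENSRNOG00000048402 and the short gene at 142.177 Mb, against 5.43% of 15922 genes. The median log2 fold change of the 12 was -0.85, beside -0.00 over all genes, with 9 lower and 3 higher in SHR-Water. Only the members that passed the filter enter these figures. The genes at 145.785 Mb (-1.09) and 147.094 Mb (-1.36) passed it here but not between the SHR groups. Their entry thus rested on their WKY levels, which favours a lower value in SHR-Water. The median and the split by direction include both genes and were not computed without them.

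The largest fold changes were those of the pair. ENSRNOG00000048402 had a log2 fold change of -3.04 (SE 0.96, adjusted p = 0.0786, edgeR) and the 36-exon row one of -2.26 (SE 0.82, adjusted p = 0.117). Leaving out WKY replicates 1 and 3, an alternative chosen after seeing the data, gave -0.32 (adjusted p = 0.749) and 0.04 (adjusted p = 0.966). Leaving out WKY replicate 2 instead gave -3.25 (adjusted p = 0.0293) and -2.46 (adjusted p = 0.0433), both calls, where 9.73% of all genes were called. With only WKY replicate 1 left out the values were -3.07 and -1.91, and with only WKY replicate 3 left out -1.32 and -1.46, none of them calls. For both genes, the difference was smallest in size with WKY replicates 1 and 3 both left out. For ENSRNOG00000048402, leaving out replicate 3 alone moved the value far more than leaving out replicate 1 alone.

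The comparison of SHR-TMAO with WKY, which shares its WKY rats with the one above, called 1 of 11 members tested, against 3.62% of 12833 genes. At an unadjusted p under 0.05, 5 of 11 members passed, against 23.4% of all genes. The median log2 fold change of the 11 was -0.44, beside -0.02 over all genes. The 11 include the gene at 145.785 Mb (-1.31), whose entry again rested on its WKY level, and the median was not computed without it. For the pair, the log2 fold change was -2.33 (SE 0.91, adjusted p = 0.132) for ENSRNOG00000048402 and -1.83 (SE 0.74, adjusted p = 0.145) for the 36-exon row. Without WKY replicates 1 and 3 these turned to 0.43 (adjusted p = 0.719) and 0.51 (adjusted p = 0.445).

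The called gene was ENSRNOG00000004317, a gene of 13 merged exons and 4325 exon bases on the plus strand (143938040 to 144008072), beyond the segment-like genes. It had 11.5, 9.72, 13.1, 14.3, 10.2 and 12.8 CPM in WKY replicates 1 to 6. The SHR-Water rats had 5.62, 5.09, 8.37, 8.23, 5.57 and 6.23 CPM. The SHR-TMAO rats had 8.09, 6.76, 4.20, 4.22, 5.74 and 2.73 CPM. Every WKY rat lay above every SHR of both groups, and the SHR groups overlapped.

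ENSRNOG00000004317 had 11.9 ± 1.77 CPM in WKY and 5.29 ± 1.95 in SHR-TMAO (SD, n = 6 each). Strain, blood pressure, treatment and the match of reads to the reference sequence cannot be told apart between these groups. The log2 fold change was -1.19 (SE 0.24, edgeR adjusted p = 0.00805). In SHR-Water it was 6.52 ± 1.43 CPM, with a log2 fold change of -0.90 against WKY (SE 0.17, adjusted p = 0.00705), which passed the p threshold and not the fold limit. It was the 1 member in each of these comparisons whose groups did not overlap, where 4.1% of all genes tested were without overlap for SHR-Water and 4.11% for SHR-TMAO. Between SHR-TMAO and SHR-Water its log2 fold change was -0.28 (95% interval -0.81 to 0.26). Over 20 alternatives the log2 fold change between SHR-TMAO and WKY stayed between -1.35 and -1.06, and it was called in each of the 20. Its level had a Pearson r of -0.03 with the length trend of the libraries (n = 18).

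The other members of the last stretch were not called against WKY in the primary analysis. ENSRNOG00000005271 (145546595 to 145625236, 17 merged exons) ran from 6.12 to 16.5 CPM in WKY (median 12.2), from 12.3 to 35.7 in SHR-Water (median 25.2) and from 14.7 to 27.2 in SHR-TMAO (median 18.9). Its log2 fold change was 0.94 for SHR-Water against WKY (SE 0.29, adjusted p = 0.0681) and 0.66 for SHR-TMAO against WKY (SE 0.24, adjusted p = 0.108). The groups overlapped in both comparisons, with SHR-Water replicates 1 (12.3 CPM) and 6 (14.4 CPM) among the WKY levels. Without SHR-Water replicate 1, the gene was called at 1.06 (adjusted p = 0.0266, edgeR), where 5.5% of all genes were.

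ENSRNOG00000032391 (144156175 to 144245545, 28 merged exons) had 7.12, 27.2, 6.21, 8.76, 9.39 and 4.21 CPM in WKY replicates 1 to 6. SHR-Water had 6.65, 44.2, 28.4, 35.7, 15.7 and 12.04 CPM. SHR-TMAO had 13.5, 6.76, 10.4, 7.88, 7.58 and 14.7 CPM. WKY replicate 2 and SHR-Water replicates 2, 3 and 4 were high, and the groups overlapped. The log2 fold change was 1.15 for SHR-Water against WKY (SE 0.48, adjusted p = 0.164) and -0.06 for SHR-TMAO against WKY (95% interval -0.88 to 0.75). Without WKY replicate 2 the gene was called for SHR-Water at 1.74 (adjusted p = 0.0179, edgeR), and with the replicate number as a block at 1.16 (adjusted p = 0.0409), where 9.73% and 4.54% of all genes were called. The same 4 libraries had the strongest positive length trends (rho 0.29 in WKY replicate 2 and 0.46 to 0.47 in the SHR-Water rats), and over the 18 rats the level of the gene had a Pearson r of 0.87 with that trend. The fit with a length offset gave 1.12 (adjusted p = 0.167, edgeR) for SHR-Water against WKY. That offset follows the length of each gene, here 2538 exon bases beside a median of 2346 over the genes compared. For a gene so near the median it cannot decide the part of the trend in these values, which was not tested.

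A pair of single-exon short genes held 98.2% of the counts of all short members. The gene at 145.777 Mb (450 bases, minus strand, within the span of a plus-strand gene) ran from 4.52 to 14.1 CPM in WKY (median 9.22), from 2.04 to 6.58 in SHR-Water (median 5.47) and from 5.89 to 10.7 in SHR-TMAO (median 8.69). The gene at 146.394 Mb (570 bases, plus strand) ran from 20.5 to 71.2 CPM in WKY (median 50.3), from 15.1 to 46.7 in SHR-Water (median 28.4) and from 27.5 to 44.9 in SHR-TMAO (median 37.0). For both, SHR-Water had the lowest median and the groups overlapped. Against WKY, the log2 fold change in SHR-Water was -0.94 (SE 0.32, adjusted p = 0.0962) and -0.80 (SE 0.32, adjusted p = 0.150).

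Both of these short genes moved against the length trend of the libraries, with a Pearson r of -0.74 for the gene at 145.777 Mb and -0.67 for that at 146.394 Mb (n = 18). With the length offset, their log2 fold changes for SHR-Water against WKY were -0.61 (adjusted p = 0.115) and -0.52 (adjusted p = 0.158). The 10 genes outside the region whose levels followed the sum of the short members most closely (Spearman rho 0.917 to 0.955, 18 rats) were themselves short, with 360 to 1243 exon bases and a median of 594, against 2346 over the genes compared. They lay on 6 chromosomes. The sum of the pair of the first stretch had an r of 0.02 with the length trend (n = 18).

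**Figure D4:**
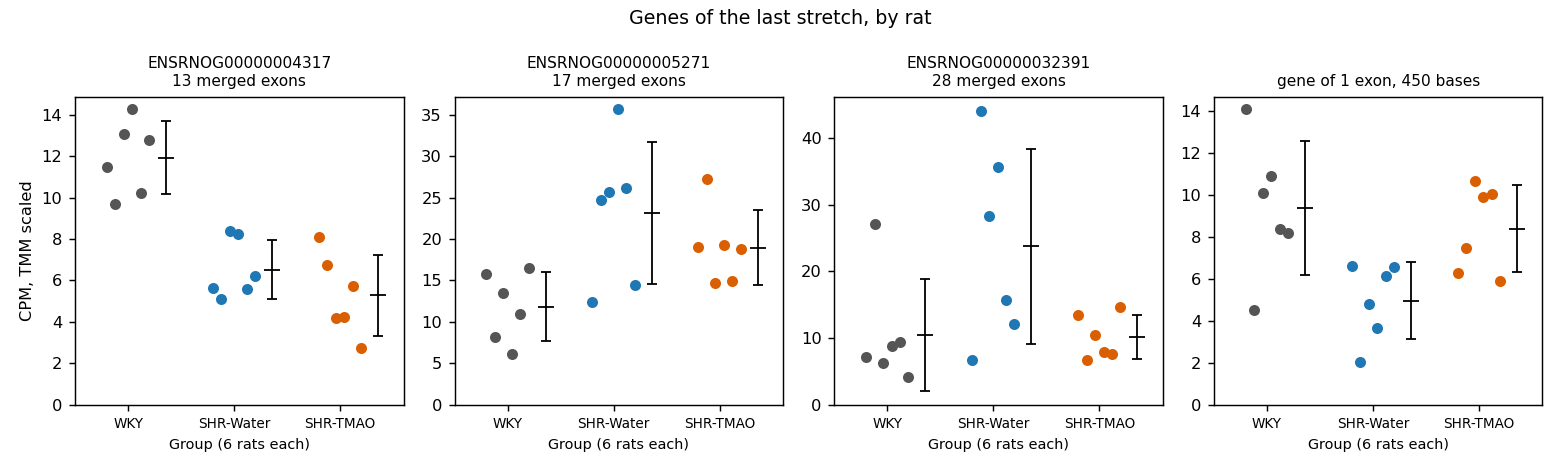
Level of 4 genes of the last stretch in each rat, in TMM-scaled CPM from 0, with the mean and SD of each group of 6 beside the points; the panel of 1 exon is the gene at 145.777 Mb. For ENSRNOG00000004317, the lowest WKY rat (9.72 CPM) lies above the highest SHR (8.37 CPM), and the groups overlap in the other panels.

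The remaining tested members were the genes at 143.901, 144.069, 144.292, 145.785 and 147.094 Mb. The gene at 143.901 Mb, of 3 merged exons, was among the most counted of the region, with 47.0 ± 25.6 CPM in WKY, 34.5 ± 5.93 for SHR-Water and 29.6 ± 6.91 for SHR-TMAO (SD, n = 6 each). WKY replicates 1, 3 and 6 had the highest values (72.7, 76.7 and 59.6 CPM), and its log2 fold change was -0.47 (95% interval -1.15 to 0.20) for SHR-Water and -0.69 (-1.38 to 0.01) for SHR-TMAO against WKY. The genes at 144.069 and 144.292 Mb had fold changes between -0.18 and 0.27 on the log2 scale in the 3 comparisons. The gene at 145.785 Mb, of 89 merged exons, had 0.803 ± 0.334 CPM in WKY, 0.370 ± 0.341 for SHR-Water and 0.321 ± 0.203 for SHR-TMAO, with log2 fold changes of -1.09 (adjusted p = 0.268) and -1.31 (adjusted p = 0.0897) against WKY. It shares 248 exon bases with a gene on the other strand, and counting used the strand. The gene at 147.094 Mb, of 14 merged exons, ran from 0.387 to 1.96 CPM in WKY (median 0.904), from 0 to 1.36 in SHR-Water (median 0.172) and from 0 to 0.575 in SHR-TMAO (median 0.0268). Its log2 fold change for SHR-Water against WKY was -1.36 (95% interval -3.03 to 0.31), it missed the filter for SHR-TMAO against WKY, and DESeq2 called it there at -2.59 (adjusted p = 0.0219).

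Setting SHR-TMAO against SHR-Water asks what TMAO does within the hypertensive strain. Of 10 members tested, 0 were called by edgeR, as were 0% of all 12852 genes. At an unadjusted p under 0.05, 2 members passed, against 25% of all genes, and DESeq2 called 1 of 14, against 2.96% of 13696 genes. The lowest adjusted p of a member was 0.104, that of ENSRNOG00000032391, whose log2 fold change was -1.19 (95% interval -2.02 to -0.37). DESeq2 gave -1.20 with an adjusted p of 0.0305 for it, and it was also called by edgeR without SHR-Water replicate 1 (-1.39, adjusted p = 0.0298). Without that library edgeR called 5.26% of 13025 genes (685), and 3.4% (442) without SHR-TMAO replicate 1, against 0% with all rats. The other was the gene at 145.777 Mb, with 0.78 (95% interval 0.18 to 1.39, adjusted p = 0.126), and 0.39 with the length offset.

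For the pair of the first stretch, the difference between SHR-TMAO and SHR-Water was 0.74 (95% interval -0.16 to 1.64, adjusted p = 0.283) for ENSRNOG00000048402 and 0.46 (-0.33 to 1.25, adjusted p = 0.449) for the 36-exon row, on the log2 scale. Both intervals include 0 and 1, so neither no difference nor one as large as the fold limit lay outside them. The median log2 fold change of the 10 members was -0.09, beside -0.01 over all genes, with 4 higher and 6 lower in SHR-TMAO. Groups did not overlap for 0 of the 10 members, where this held for 1.28% of all genes.

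**Figure D5:**
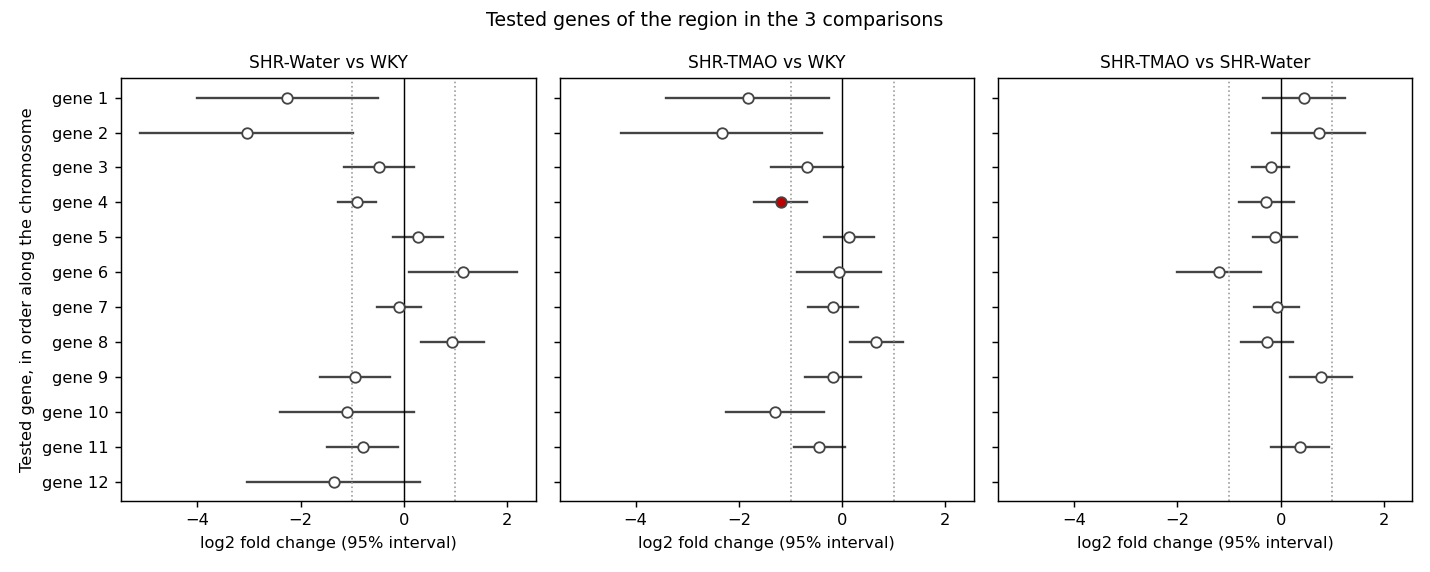
Log2 fold change with its 95% interval for the members tested in each comparison, numbered in order along the chromosome from the 36-exon row at 138.055 Mb (gene 1) to the gene at 147.094 Mb (gene 12), with the fold limit dotted and a called gene filled. Gene 4, ENSRNOG00000004317, was the 1 gene called, and the intervals of genes 1 and 2, the pair of the first stretch, were the widest in both comparisons with WKY.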

How the data were processed

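RNA-seq was done on vWAT of 18 rats. The authors deposited whole-number counts per gene, not normalized, together with the exon length of each gene (merged exons). The submitters' processing notes name cutadapt 2.5, HISAT2 2.1.0, featureCounts 1.6.3 and DESeq2 with the build Rnor_6.0. The head of the deposited table gives strand setting 2, no option for reads that map to several places, and the Ensembl release 96 annotation, while the study's methods name GENCODE.

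From these counts, TMM factors, TMM-scaled CPM and, from it and the exon length, FPKM were computed, and each comparison was fitted on its 2 groups over the whole table with edgeR 4.0.16 in R 4.3.3 (filterByExpr, quasi-likelihood test, Benjamini-Hochberg adjustment, adjusted p under 0.05 and log2 fold change of at least 1). DESeq2 1.42.0 was an alternative, as were other filters, size factors, a replicate block, a length offset, mitochondrial genes left out and each rat left out. Correlations were computed in Python 3.11.15 with scipy 1.17.1. The fits were tested on simulated counts with 100 genes changed 2-fold and 100 changed 4-fold per comparison. At an adjusted p under 0.05 without a fold limit, 47, 44 and 57 of the 2-fold changes were recovered. Of the 4-fold changes, 85, 89 and 90 were, with 10, 4 and 7 false calls. The order is SHR-Water against WKY, SHR-TMAO against WKY, and SHR-TMAO against SHR-Water. Changes of the size of the fold limit were thus often missed. No 2 libraries matched within sampling noise (lowest chi-square per degree of freedom 14.3). Library totals of 10774133 to 18874161 limit the precision of genes with few counts.

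The members and lists were chosen with earlier results of these data known. Named were called members, the 10 highest by FPKM and by CPM, the most counted member of a rat, and others chosen after their values were seen. Reference names matched 0 identifiers, so at most 2 identifiers higher and 2 lower are given, and marker lists were not used. The borders of the stretches were set after seeing the data. Replicate numbers were not taken as pairing rats, since not every same-numbered pair had a correlation over 0.1: of 6 same-numbered pairs, 5, 1 and 0 had one in the comparisons of SHR-Water with WKY, SHR-TMAO with WKY and SHR-TMAO with SHR-Water.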

Additional observations from a re-analysis of the deposited data

Results flagged for a closer look

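In 57 groups of 6 rats, the highest or lowest rat was compared with the rest. In 11 of them, the gap to the nearest other rat exceeded, as a share of the range of the group, the 95% critical value of Dixon for 6 samples. About 1 group in 20 would show this by chance, more in genes at 0 in most rats.

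For the first stretch as a whole, WKY replicate 3 had 612 CPM, and the other WKY rats had 17.3 to 194. This came from ENSRNOG00000048402, at 458 CPM in the same rat against 6.44 to 92.7 in the others. In SHR-Water, replicate 3 had 29.3 CPM of that gene, against 3.84 to 12.7. A further gene of the first stretch, at 138.353 Mb with 10 merged exons, had 2.87 CPM in WKY replicate 2 and at most 0.305 in the other WKY rats.

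In the last stretch, ENSRNOG00000032391 had 27.2 CPM in WKY replicate 2, against 4.21 to 9.39 in the rest of its group. ENSRNOG00000005271 had 27.2 CPM in SHR-TMAO replicate 2, against 14.7 to 19.3. The gene at 144.292 Mb had 5.72 CPM in SHR-Water replicate 2, against 3.90 to 4.47, and the gene at 147.094 Mb had 1.96 CPM in WKY replicate 1, against 0.387 to 0.972. The gene at 147.315 Mb, at 0 in most libraries, had 3.28 CPM (57 counts) in SHR-TMAO replicate 3 and 0.109 CPM (2 counts) in SHR-Water replicate 4. The short gene at 142.177 Mb had 0.0610 CPM in WKY replicate 5, its 1 count in that group. The causes were not tested.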

How the results depend on the processing

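The call of ENSRNOG00000004317 between SHR-TMAO and WKY held in all 20 alternatives. For SHR-Water against WKY, 0 members were called in the primary analysis. With no fold limit the count was 1, where 798 of all 13017 genes tested were called. The count was 2 with DESeq2 (5.43% of all genes), 1 with all 18 samples in the fit (4.14%) and 1 with the gene length offset (3.55%). It was 0 to 4 when a rat was left out: 4 without WKY replicate 2, where 9.73% of all genes were called, and 1 without SHR-Water replicate 1 (5.5%). For SHR-TMAO against WKY, with 1 called, it was 3 with DESeq2 (5.13%), 2 without the filter on low counts (2.32%) and 1 to 2 when a rat was left out: 2 without WKY replicate 4 (4.98%) and 2 without SHR-TMAO replicate 2 (3.34%), the gene at 147.094 Mb being added. For SHR-TMAO against SHR-Water, with 0 called, it was 1 with DESeq2 (2.96%) and 0 to 1 when a rat was left out, the 1 being without SHR-Water replicate 1 (5.26%). With the replicate block, the counts were 1 (ENSRNOG00000032391 at 1.16, adjusted p = 0.0409, edgeR), 1 and 0, against 4.54%, 2.66% and 0% of all genes; the same-numbered rats are not shown to be paired (correlations from -0.26 to 0.52, -0.21 to 0.25 and -0.35 to 0.03). The summed level with mitochondrial genes left out of the totals was 211 CPM for SHR-Water and 184 for SHR-TMAO; as a median of log2(CPM + 1) it was 0 in WKY, 0.0132 for SHR-Water and 0 for SHR-TMAO, since most members are at or near 0. With a rat left out, it was 206 to 342 CPM in WKY, 153 to 165 in SHR-Water and 154 to 161 in SHR-TMAO, and the lowest WKY value was without replicate 3. Without WKY replicates 1 and 3, the log2 fold changes of the pair changed sign for SHR-TMAO against WKY (0.43 and 0.51), as did that of the 36-exon row for SHR-Water against WKY (0.04). The causes were not tested where the alternative does not itself give them.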
